A study of Homo sapiens with 6 samples.

Results

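The clustered protocadherins are cell-surface proteins of the cadherin superfamily, encoded by 3 neighbouring gene arrays on chromosome 5. The set described here holds every protein-coding gene of chromosome 5 in GENCODE release 29 (GRCh38) whose symbol begins with PCDHA, PCDHB or PCDHG. It numbers 53 of the 35579 genes in the tables: 15 alpha, 16 beta and 22 gamma genes. Messenger RNA was sequenced from Rh30, an alveolar rhabdomyosarcoma line, which is a muscle-lineage tumour line, and all 6 cultures carry the PAX3-FOXO1 gene fusion. Cells with a knockdown of DDX5, a DEAD-box RNA helicase, labelled siDDX5, formed 1 group of 3 libraries, and 3 libraries labelled control formed the other. The libraries are labelled as biological replicates 1 to 3 of each group, all from this single line, and the labels give neither the dose nor the time of the knockdown, nor what the control cells received. The comparison asks how transcript levels of each array differ between DDX5 knockdown and control.

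In the alpha and gamma arrays, a row of large variable exons, each with a promoter of its own, is spliced to a shared set of small constant exons. A variable exon encodes the extracellular cadherin repeats and the membrane span, and the constant exons encode a common cytoplasmic tail. Beta genes have single coding exons and no such tail. In neurons the arrays are known for giving single cells different combinations of isoforms, which recognise the same isoforms on other cells. Promoter choice there is known to depend on the DNA-binding insulator protein CTCF and on cohesin. The C-type genes at the end of the alpha and gamma arrays (PCDHAC1, PCDHAC2, PCDHGC3, PCDHGC4 and PCDHGC5) are known to be used in a less cell-to-cell variable manner.

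The libraries held 18202402 to 26156858 estimated counts, and the 3 siDDX5 libraries were all shallower than the 3 controls. A floor of 3 counts corresponded to 0.115 to 0.165 CPM, a count scaled for the depth of its library. DDX5 itself was read at 1352, 1434 and 1137 CPM in the control libraries and at 549, 505 and 396 CPM in the siDDX5 libraries. That is -1.44 on the log2 scale (SE 0.15), with an adjusted p of 0.0106 in edgeR's quasi-likelihood test. That call was lost without control replicate 1 (adjusted p = 0.0955), siDDX5 replicate 1 (0.0634) or siDDX5 replicate 2 (0.0538). All 8 myoblast or rhabdomyosarcoma markers were read at 1 TPM (a level per transcript length) or more, with a summed level of 1174 to 1509 TPM in control and 1132 to 1200 TPM in siDDX5 libraries. Of 7 neuronal markers, SNAP25 and STMN2 were listed at 0 in all 6 libraries and ELAVL3 and ELAVL4 were below 1 TPM. The summed neuronal level was 76.7 to 94.0 TPM in control and 93.1 to 104.4 TPM in siDDX5 libraries, carried mostly by TUBB3 and SYT1. Its part in the results below was not tested. Summed fibroblast markers, mostly THY1, stood at 86.9 to 107.5 TPM in control and 97.9 to 109.3 TPM in siDDX5 libraries. Summed epithelial markers reached at most 4.72 TPM, haematopoietic markers 4.36 TPM and endothelial markers 7.27 TPM.

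Clustered protocadherin transcripts were scarce as a group, and a single gamma gene made up most of them. The 53 genes together held 8362 to 11522 estimated counts in the control and 5621 to 7387 in the siDDX5 libraries, or 0.0292% to 0.0441% of a library. The gamma gene PCDHGC3, a C-type isoform, had by far the highest level, with a mean of 71.3 TPM over the 6 libraries. PCDHB2 followed at 7.79 TPM, then PCDHB5 at 6.18 TPM and PCDHB9 at 5.60 TPM. The place of PCDHB9 rests largely on short transcripts with few counts. In control replicate 1, those of 498 and 616 bases held 11.3 and 21.99 counts but 2.17 and 3.78 TPM. Its 4415-base transcript held 145.3 counts and 2.05 TPM. In CPM, PCDHB9 stood below PCDHB8 and PCDHB16, with control means of 6.11, 9.57 and 9.02 CPM in that order. The highest alpha gene, PCDHA4, stood at 1.72 TPM.

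A mean level of at least 1 TPM was reached by 21 of the 53 genes: 1 alpha, 9 beta and 11 gamma genes. At least 10 counts in every library were held by 27 genes (2 alpha, 12 beta and 13 gamma). The alpha array was the least used, with a median of 0.0141 TPM over its genes against 1.01 TPM for beta and 0.769 TPM for gamma. PCDHA6, PCDHA8, PCDHA11, PCDHA12, PCDHA13 and PCDHAC2 were listed at 0 in all 6 libraries. PCDHA2 and PCDHA3 stayed under 3 counts in each library. The plot of levels by library shows PCDHGC3 standing apart from the other 52 genes.

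**Figure D1:**
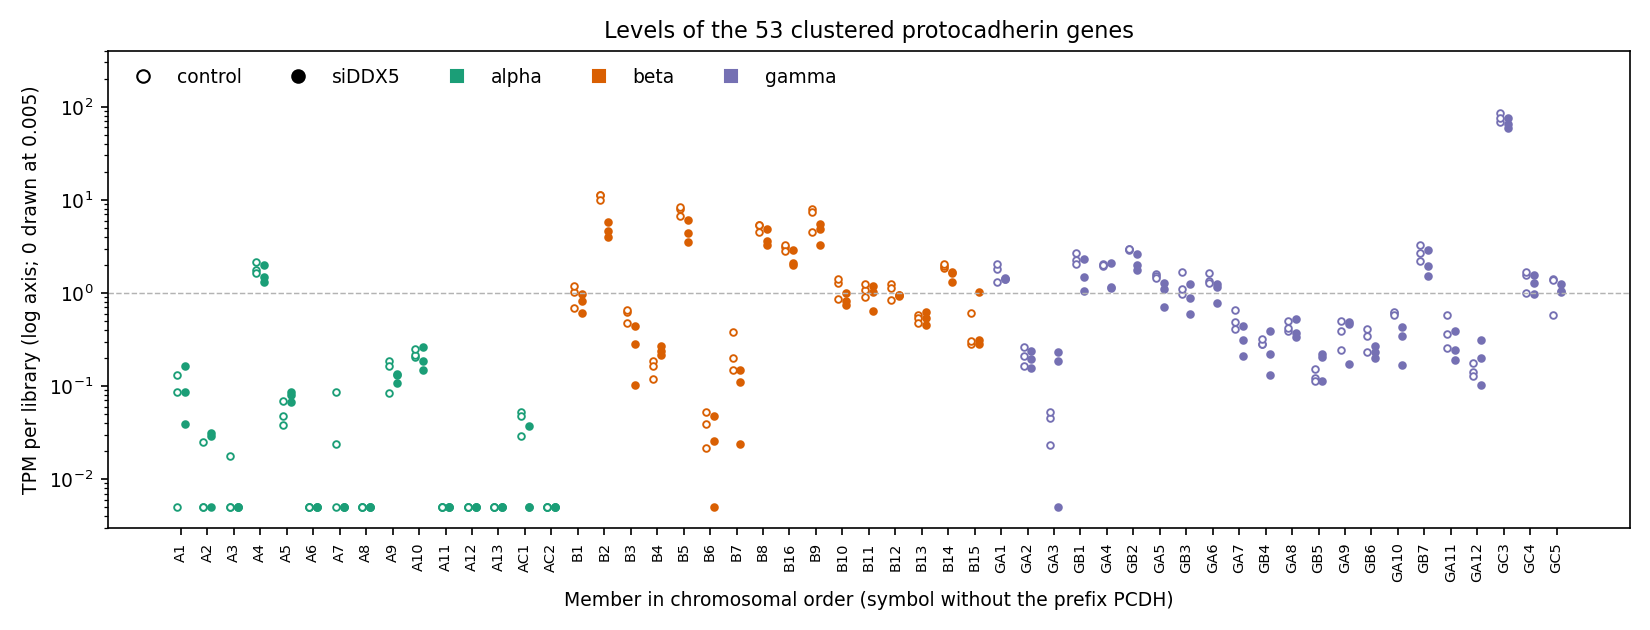
Level of each clustered protocadherin gene in TPM on a log axis, in chromosomal order, with 1 point per library (open for control, filled for siDDX5); a value of 0 is drawn at 0.005. PCDHGC3 lies between 58.5 and 84.8 TPM and 6 alpha genes lie at 0 in all libraries.

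Each of the alpha and gamma arrays has a set of exons that its genes share, and counts on transcripts with them were near 0 for alpha genes and varied between gamma genes. The first alpha constant exon, chr5:140978949-140979007, and the second, chr5:140982475-140982563, are 59 and 89 bases long and occur in transcripts of all 15 alpha genes. The first gamma constant exon, chr5:141494807-141494865, and the second, chr5:141505393-141505481, have the same lengths and occur in transcripts of all 22 gamma genes. Both arrays lie on the plus strand. The 59-base exons are shown because they are what joins each array's genes, and because reads on them cannot be assigned to a single gene from those letters alone. They are printed in coding direction, with capitals at positions where alpha and gamma have the same base:
Alpha constant exon: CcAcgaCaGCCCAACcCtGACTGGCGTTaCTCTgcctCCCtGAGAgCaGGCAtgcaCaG
Gamma constant exon: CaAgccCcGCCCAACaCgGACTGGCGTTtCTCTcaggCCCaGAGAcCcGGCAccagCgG
They share 39 of 59 bases (66.1%), and the 89-base exons share 29 of 89 (32.6%), by position and without gaps.

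Gamma counts as a whole sat mostly on transcripts that hold a constant exon, because PCDHGC3 did. Of the counts of gamma genes, 84.8%, 80.5% and 81.2% in the control libraries and 81.7%, 83.6% and 86.2% in the siDDX5 libraries were assigned to the 28 gamma transcripts with such an exon. The groups overlap, with means of 82.2% ± 2.31 and 83.9% ± 2.21 (SD, n = 3 libraries each, as in all values with ± here). Without PCDHGC3 the share was 48.5%, 29.7% and 33.4% in control and 40.3%, 34.5% and 45.8% in siDDX5 libraries, so most counts of the other 21 gamma genes were on transcripts without such an exon.

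Over the 6 libraries together, 5 of the 22 gamma genes had more than 50% of their counts on constant-exon transcripts: PCDHGC3 (92.6%), PCDHGA12 (93.2%), PCDHGB7 (88.2%), PCDHGB3 (77.5%) and PCDHGC5 (75.7%). Single libraries varied widely for some of these genes. The constant-exon transcript of PCDHGA12 took 0% of its counts in siDDX5 replicate 2 and at least 89.1% in the other libraries. For PCDHGB3 the share ran from 50.4% to 100% and for PCDHGC5 from 41.1% to 100%. The division of a gene's counts among its transcripts is thus uncertain for such genes. PCDHGA2, PCDHGA5, PCDHGB4, PCDHGB5 and PCDHGB6 had 0 counts on such transcripts and were read wholly from single-exon ones. Alpha counts sat on transcripts without constant exons. The 22 alpha transcripts that hold one took between 0% and 0.708% of the alpha counts, and none of them reached 3 counts in any library.

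The 3 alpha genes with the most counts were each read from a single-exon transcript that runs past the variable exon without splicing to a constant exon. For PCDHA4 this was ENST00000618834.1, of 10557 bases (chr5:140807037-140817593), with 249, 258 and 214 counts in control and 213, 149 and 151 in siDDX5 libraries. It took 100% of the counts of PCDHA4 in every library. PCDHA10 was read from ENST00000562220.2, of 12358 bases (chr5:140855883-140868240), and PCDHA9 from ENST00000378122.4, of 6900 bases (chr5:140847772-140854671). The annotation also places antisense genes over exons of these alpha genes: AC005609.5 (chr5:140788457-140822193) over PCDHA1 to PCDHA5, AC005609.2 over PCDHA9 and AC005609.4 over PCDHA10. No transcript used here was joined to these antisense genes, and whether reads were assigned by strand is not given in the sources used here. Sense and antisense reads at these alpha genes therefore cannot be told apart. The same limit holds for the beta array, where AC244517.5, AC244517.2 and AC244517.11 together overlap exons of every beta gene. In the gamma array AC005618.3 overlaps PCDHGB1. These genes were not joined to any transcript used here either.

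**Figure D2:**
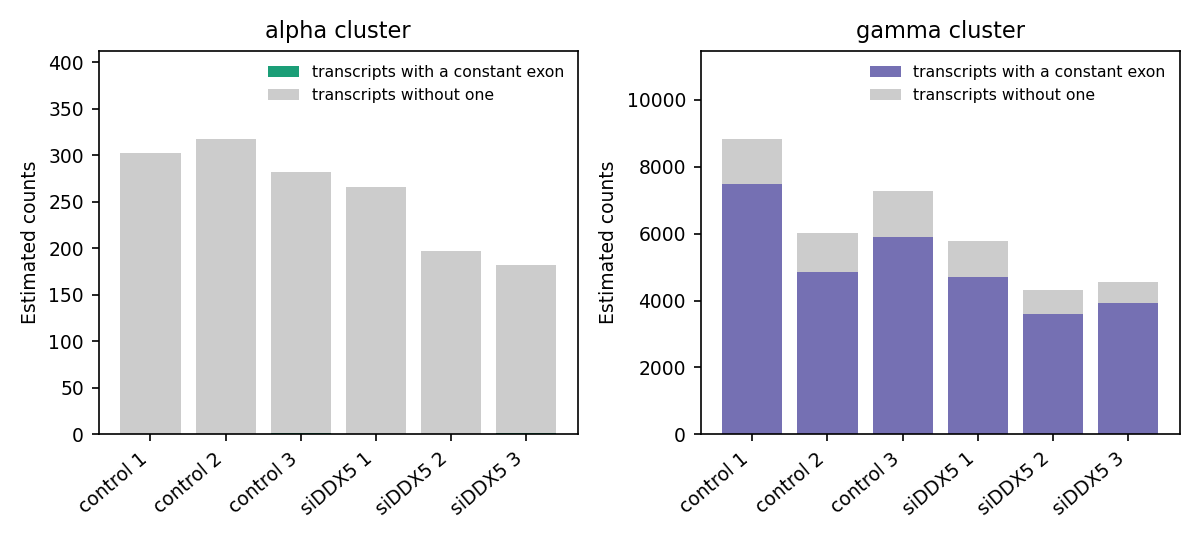
Estimated counts of the alpha (left) and gamma (right) genes in each library, divided into transcripts with a constant exon (coloured) and without (grey). Almost the whole alpha bar is grey (at most 0.708% is not), and 80.5% to 86.2% of the gamma bar, most of it PCDHGC3, is coloured.

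Many words of sequence are common to several genes, which limits how reads could be assigned to each. The measure used was the share of a gene's 31-base words found in no other gene's transcripts. It ranged from 28.5% to 71.9% (median 46.4%) over the alpha genes, from 43.9% to 93.6% (median 77.6%) over the beta genes and from 26.6% to 62.0% (median 54.8%) over the gamma genes. PCDHB2 had 73.9% of words of its own, PCDHB5 80.2%, PCDHGC3 60.9% and PCDHA4 71.9%. PCDHB8 (43.9%) was the least distinct beta gene and PCDHGB4 (26.6%) the least distinct gamma gene, so their single-gene values are the more uncertain ones. The alpha pseudogene PCDHA14 and the beta pseudogenes PCDHB17P, PCDHB18P and PCDHB19P also share words with members. PCDHB18P held 70, 56 and 54 counts in control and 38, 41 and 32.1 in siDDX5 libraries (log2 fold change -0.36, edgeR adjusted p = 0.587).

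Between siDDX5 and control, PCDHB2 fell and no other clustered protocadherin gene was called. Calls rest on the quasi-likelihood test of edgeR, with p adjusted by Benjamini-Hochberg over the 15223 genes that passed the filter on low counts and a threshold of 0.05. That filter was passed by 37 members: 3 alpha, 14 beta and 20 gamma genes. The count of 1 called member compares with 25 genes called among all tested (0.164%), of which 17 were lower (0.112%). Same-numbered libraries deviated together, and PCDHB5 was called as well when the fit took the replicate number as a block. That makes 2 members, against 394 of all genes tested (2.59%). In bulk RNA, fewer cells that express a gene and less RNA per cell cannot be told apart.

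Most of the members that passed the filter had values below control, mainly by amounts the test did not separate from replicate spread. A log2 fold change below 0 was found for 31 of the 37 (3 of 3 alpha, 11 of 14 beta and 17 of 20 gamma genes), against 50.4% of all genes tested. Their median log2 fold change was -0.24, with -0.15 for alpha, -0.34 for beta and -0.32 for gamma genes, against -0.0016 for all genes tested. An unadjusted p under 0.05 with a lower value was found for 7 members, 4 beta and 3 gamma, against 6.0% of all genes. With the replicate block there were 15, 6 beta and 9 gamma, against 10.3%. An unadjusted p under 0.05 with a higher value was found for 0 members in either fit, against 5.37% of all genes without the block and 10.2% with it.

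All 3 siDDX5 libraries lay below all 3 control libraries for 11 members, 6 beta and 5 gamma genes, against 9.16% of all genes tested. The beta genes were PCDHB2, PCDHB3, PCDHB5, PCDHB9, PCDHB14 and PCDHB16. The gamma genes were PCDHGA4, PCDHGA5, PCDHGA6, PCDHGA10 and PCDHGB2. Of the 37, PCDHB4 alone had all siDDX5 libraries above all control libraries, against 8.87% of all genes tested. Genes of an array share sequence, and in the gamma array also exons, so these counts are not counts of independent genes.

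**Figure D3:**
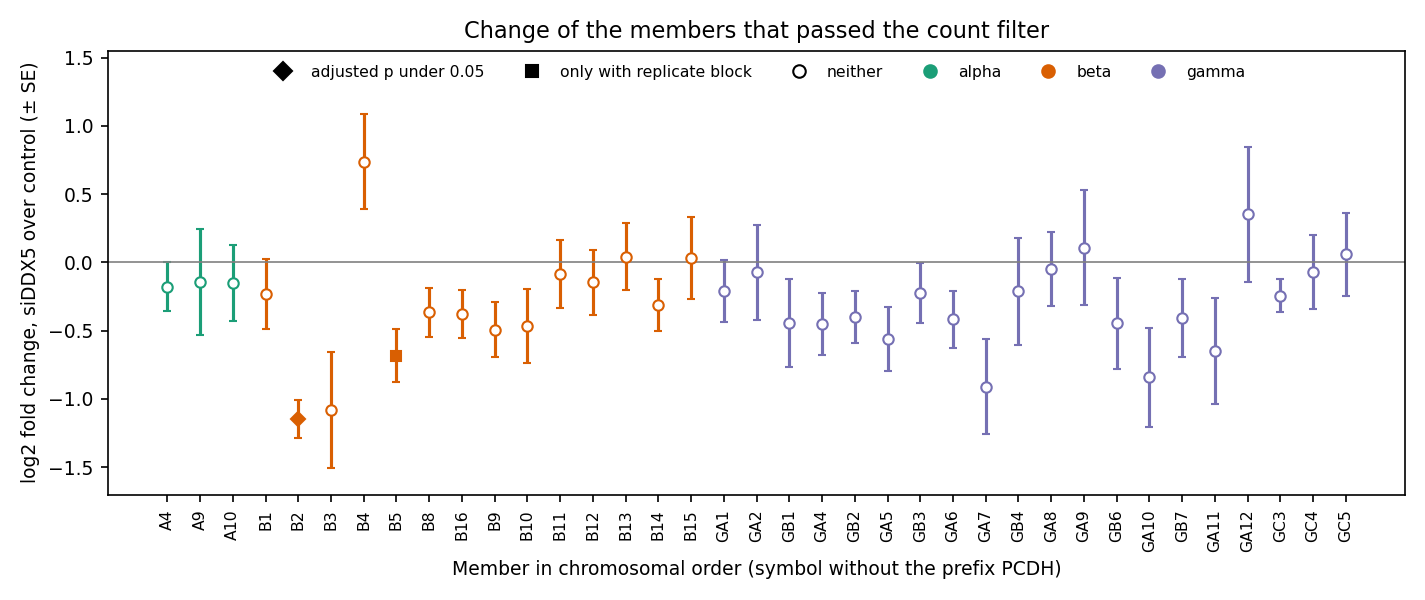
Log2 fold change of siDDX5 over control with its standard error for the 37 members that passed the filter, in chromosomal order. PCDHB2 at -1.15 is the filled diamond (called), PCDHB5 at -0.68 the filled square (called with the replicate block), and open circles were called in neither fit.

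The summed level of the beta array was lower in siDDX5, while the gamma sum was lower within each same-numbered pair but overlapped between groups, and the alpha sum overlapped. Summed over its 16 genes, the beta array stood at 93.3, 93.6 and 84.1 CPM in the control and at 66.6, 59.9 and 52.8 CPM in the siDDX5 libraries. CPM values of genes here are scaled by TMM factors. The beta groups did not overlap, at 90.3 ± 5.42 against 59.8 ± 6.91 CPM, which is 1.51-fold lower (-0.60 on the log2 scale). Without PCDHB2, its largest contributor, the beta sum was 63.3 ± 3.69 against 47.6 ± 5.41 CPM (-0.41 on the log2 scale), again without overlap.

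The gamma sum was 342.9, 278.6 and 299.5 CPM in control and 285.1, 233.7 and 251.2 CPM in siDDX5 libraries, a log2 ratio of -0.26. As groups they overlapped, since control replicate 2 lay below siDDX5 replicate 1. Within same-numbered pairs the gamma log2 ratios were -0.27, -0.25 and -0.25, and those of the beta sum were -0.49, -0.64 and -0.67. The alpha sum was 11.8, 14.7 and 11.6 CPM in control against 13.1, 10.7 and 10.02 CPM in siDDX5 libraries, a log2 ratio of -0.17 within the spread of the libraries, and 0.16, -0.46 and -0.22 within pairs. Without PCDHGC3 the gamma ratio was -0.32 and without PCDHA4 the alpha ratio was -0.14, both with overlapping groups.

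**Figure D4:**
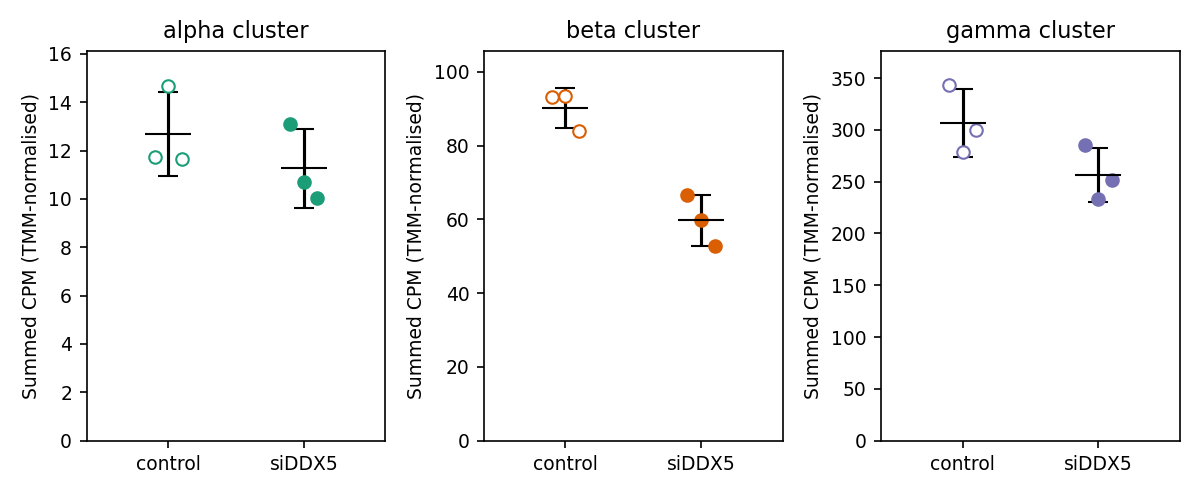
Summed TMM-normalised CPM of each array per library, on axes that start at 0; horizontal bars are group means and error bars are SD. The beta groups, 84.1 to 93.6 CPM against 52.8 to 66.6 CPM, do not overlap, and the alpha and gamma groups do.

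The beta genes lie in a row, each behind a promoter of its own, and most of these promoters hold a common short word. Many clustered protocadherin promoters are known to carry a conserved element with a CGCT core, near a site where CTCF binds. The 10-base word shared by the largest number of members of each array was picked from the RefSeq promoter windows, read on the plus strand. These windows run from 250 bases before to 50 after the start (GRCh38.p14). Windows that hold the word on either strand were then counted. For beta the word was GGTGGCGCTG, in 12 of 14 beta genes with a window. For alpha it was ATGATGTCGC, in 8 of 13, and for gamma GCGCCGCTGT, in 9 of 20. Of all 35116 promoter windows, 0.276% held the beta word, 0.0313% the alpha word and 0.131% the gamma word. No member's window held the word of another array. The words were picked for being shared, so these counts are a description.

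Windows are printed for PCDHB2 and PCDHB5, the beta genes on which the comparison turns, and for PCDHB4, picked after its values were seen. Windows of 1 alpha and 1 gamma gene are added to show how the words differ. They are plus-strand sequence of GRCh38.p14, with the word in capitals, and they end before the annotated gene start:
PCDHB2 chr5:141094495-141094577: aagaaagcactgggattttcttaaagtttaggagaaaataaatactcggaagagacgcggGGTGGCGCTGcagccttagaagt
PCDHB5 chr5:141135130-141135205: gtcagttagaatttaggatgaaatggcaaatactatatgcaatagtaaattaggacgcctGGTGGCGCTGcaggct
PCDHB4 chr5:141121674-141121763: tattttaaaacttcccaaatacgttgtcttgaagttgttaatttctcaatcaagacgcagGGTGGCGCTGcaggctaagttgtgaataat
PCDHA5 chr5:140821491-140821580: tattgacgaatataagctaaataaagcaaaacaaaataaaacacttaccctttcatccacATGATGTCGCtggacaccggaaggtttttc
PCDHGA7 chr5:141382601-141382690: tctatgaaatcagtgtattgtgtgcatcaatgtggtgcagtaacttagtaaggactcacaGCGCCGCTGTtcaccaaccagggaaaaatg
The word begins 60 bases before the RefSeq start in PCDHB2, 16 bases before it in PCDHB5 and 84 bases before it in PCDHB4. PCDHB2, PCDHB5 and PCDHB4 hold the same 10 letters. PCDHB4 had 9, 6 and 9 counts in control and 12, 10 and 10 in siDDX5 libraries and was not called (edgeR adjusted p = 0.465). Whether the word bears on the levels of these genes was not tested. The windows of PCDHB1 and PCDHB14 lack the word, which says only that these letters are not in those windows.

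PCDHB2 (ENSG00000112852.6, chr5:141094578-141098703) was the member that fell. Its estimated counts were 715, 611 and 607 in the control and 271, 238 and 188 in the siDDX5 libraries. Scaled for depth this was 27.8, 28.3 and 25.0 CPM against 13.4, 12.9 and 10.3 CPM, and per length 11.3, 11.2 and 9.96 TPM against 5.77, 4.59 and 3.94 TPM. The highest siDDX5 library lay well below the lowest control library on each scale.

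PCDHB2 was 2.21-fold lower, or -1.15 on the log2 scale (SE 0.14), with an edgeR adjusted p of 0.0215, and of 0.00208 with the replicate block. The call held without control replicate 3 (adjusted p = 0.0314). It was lost without control replicate 1 (0.115), control replicate 2 (0.0581), siDDX5 replicate 1 (0.103), siDDX5 replicate 2 (0.0636) or siDDX5 replicate 3 (0.0815), and in limma-trend on TPM values with a pseudocount of 1 (0.170) or 0.1 (0.151). Its share of all beta counts was 29.8%, 30.2% and 29.8% in control and 20.1%, 21.5% and 19.6% in siDDX5 libraries, and these shares did not overlap. Nearly all of its counts, 98.0% ± 1.68 in control and 97.1% ± 2.54 in siDDX5 libraries, were on the single-exon transcript ENST00000194155.6. The annotation places an antisense gene, AC244517.5, over exons of PCDHB1 and PCDHB2, and no transcript used here was joined to it.

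PCDHB5 (ENSG00000113209.8, chr5:141135218-141138625) was the second beta gene by level. It held 447, 386 and 349 counts in control and 256, 195 and 139 in siDDX5 libraries, which is 17.4, 17.9 and 14.4 against 12.6, 10.6 and 7.65 CPM. The groups did not overlap, but the siDDX5 libraries spread more widely than those of PCDHB2. Its log2 fold change was -0.68 (SE 0.19), with an edgeR adjusted p of 0.235, and of 0.0263 with the replicate block. Its share of the beta counts was 18.3% ± 1.02 in control and 17.0% ± 2.31 in siDDX5 libraries, which overlap. Antisense genes AC244517.2 and AC244517.11 are annotated over exons of PCDHB5, and no transcript used here was joined to them. Every other beta gene also has an antisense gene annotated over its exons, so this limit applies to the beta sum as well.

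The other well-read beta genes had smaller differences that did not pass the test. PCDHB9 stood at 6.96, 6.62 and 4.74 CPM in control and 4.35, 4.28 and 4.40 CPM in siDDX5 libraries (log2 fold change -0.49, edgeR adjusted p = 0.404). PCDHB16 stood at 9.10, 9.72 and 8.25 CPM against 8.10, 6.82 and 5.83 CPM (-0.38, adjusted p = 0.457). For both genes the groups were separate, by a narrow margin. PCDHB8, which shares 56.1% of its words with other beta genes, stood at 10.2, 8.51 and 10.02 CPM against 8.69, 7.53 and 6.05 CPM (-0.37, adjusted p = 0.484), with overlap.

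Among the remaining beta genes, values went in both directions. PCDHB3, the next gene downstream of PCDHB2, had 34.6, 30.6 and 24.1 counts in control and 18.2, 12.2 and 4.0 in siDDX5 libraries, with -1.08 on the log2 scale (SE 0.42) and an edgeR adjusted p of 0.376. PCDHB4, the gene between PCDHB3 and PCDHB5, had 9, 6 and 9 counts against 12, 10 and 10, with 0.74 on the log2 scale (SE 0.35) and an adjusted p of 0.465. These 2 genes were picked for mention after their values were seen. The other 7 beta genes had log2 fold changes of -0.46 (PCDHB10), -0.31 (PCDHB14, separate groups), -0.23 (PCDHB1), -0.15 (PCDHB12), -0.09 (PCDHB11), 0.04 (PCDHB13) and 0.03 (PCDHB15), with edgeR adjusted p from 0.554 to 0.983. Also in this array, PCDHB6 and PCDHB7 did not pass the filter and held at most 3 and 21 counts in any library.

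**Figure D5:**
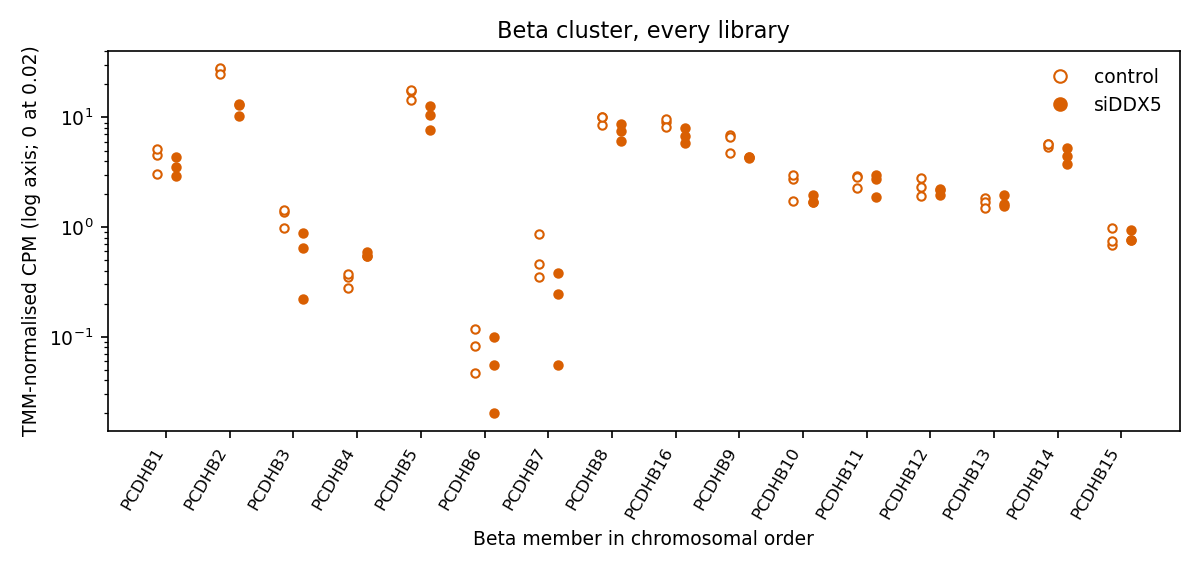
TMM-normalised CPM of the 16 beta genes in chromosomal order on a log axis, with 1 point per library (open for control, filled for siDDX5); 0 is drawn at 0.02. PCDHB2 shows the widest gap among the genes above 10 CPM, 25.0 to 28.3 CPM against 10.3 to 13.4 CPM, and PCDHB4 is the gene whose filled points all lie above the open ones.

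In the gamma array, PCDHGC3 (ENSG00000240184.6, chr5:141475947-141512979) held 81.6% ± 1.15 of the counts in control and 82.5% ± 1.03 in siDDX5 libraries. Its counts were 7207, 4837 and 6000 in control and 4692, 3589 and 3790 in siDDX5 libraries, and its levels 280, 224 and 248 CPM against 232, 194 and 209 CPM. Each siDDX5 library was lower than the control library of the same number, but siDDX5 replicate 1 lay above control replicate 2. The log2 fold change was -0.24 (SE 0.12), with an edgeR adjusted p of 0.480, and of 0.155 with the replicate block.

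Most reads of PCDHGC3 were on the full-length transcript ENST00000308177.5, of 4758 bases, which joins its variable exon to the constant exons. That transcript took 88.0% ± 0.465 of the gene's counts in control and 84.6% ± 4.55 in siDDX5 libraries. ENST00000611950.1, which holds variable-exon sequence without a constant exon, took 6.87% ± 1.23 and 6.07% ± 1.89. ENST00000617641.4, which has a shortened first exon, took 4.23% ± 1.47 and 8.20% ± 4.67, with a wide spread in the siDDX5 group.

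The other C-type gamma genes differed little. PCDHGC4, which is needed for survival of inhibitory neurons in mice, stood at 2.99 ± 0.876 CPM in control and 2.84 ± 0.362 CPM in siDDX5 libraries. PCDHGC5 stood at 3.57 ± 1.44 CPM and 3.72 ± 0.308 CPM. Their log2 fold changes were -0.07 (SE 0.27, edgeR adjusted p = 0.949) and 0.06 (SE 0.30, adjusted p = 0.967).

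The A-type and B-type gamma genes were read at 0.0892 to 2.55 TPM on average, and 19 of the 20 gamma genes that passed the filter stood below 3 TPM. The highest of them per length was PCDHGB2, at 6.26, 5.78 and 5.36 CPM in control and 5.09, 3.79 and 4.29 CPM in siDDX5 libraries (log2 fold change -0.40, edgeR adjusted p = 0.470). PCDHGB7 stood at 12.2, 6.62 and 8.25 CPM against 9.48, 5.36 and 5.56 CPM (-0.41, adjusted p = 0.625). Each number's siDDX5 library of PCDHGB7 lay below its control library, while the groups overlapped widely. PCDHGB1 showed the same pattern, at 6.30, 3.93 and 3.63 CPM against 4.84, 3.19 and 2.15 CPM (-0.44, adjusted p = 0.643). For both genes replicate 1 was the highest library of each group, so leaving out only 1 of these libraries unbalanced the groups. PCDHGB7 was at -0.12 without control replicate 1 and -0.72 without siDDX5 replicate 1, and PCDHGB1 at -0.15 and -0.78. With the replicate block, which kept all libraries, the log2 fold changes were -0.41 for PCDHGB7 and -0.46 for PCDHGB1.

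The smallest unadjusted p among gamma genes belonged to PCDHGA7 and PCDHGA5. PCDHGA7 stood at 1.48, 0.879 and 1.49 CPM in control and 0.889, 0.487 and 0.660 CPM in siDDX5 libraries (log2 fold change -0.91, SE 0.35, edgeR adjusted p = 0.365). Its lowest control library and highest siDDX5 library were nearly at the same level. PCDHGA5 stood at 3.73, 3.56 and 3.34 CPM against 2.82, 1.79 and 2.59 CPM (-0.56, SE 0.24, adjusted p = 0.412), with separate groups. PCDHGA4 was separate too, at 4.71, 5.00 and 4.99 CPM against 4.49, 2.65 and 3.58 CPM (-0.45, adjusted p = 0.491). PCDHGA3 and PCDHGB5 did not pass the filter and held at most 8 and 7 counts in any library.

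In the alpha array, no gene was called and the 3 that passed the filter had overlapping groups. PCDHA4 (ENSG00000204967.10), which held 79.8% ± 3.53 of the alpha counts in control and 79.6% ± 3.70 in siDDX5 libraries, stood at 9.68, 11.9 and 8.83 CPM against 10.5, 8.07 and 8.31 CPM. This is -0.18 on the log2 scale (SE 0.18), with an edgeR adjusted p of 0.757. PCDHA10 stood at 1.40, 1.43 and 1.65 CPM against 1.68, 1.35 and 0.990 CPM (-0.15, adjusted p = 0.880). PCDHA9 stood at 0.350, 0.740 and 0.619 CPM against 0.494, 0.596 and 0.440 CPM (-0.14, adjusted p = 0.922). The sign of PCDHA10 turned without siDDX5 replicate 3 (log2 fold change 0.03), and that of PCDHA9 without control replicate 2 (0.08). PCDHA1 held at most 6 counts and PCDHA5 at most 4 in any library, so differences in them were not detectable at this depth.

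Genes that act on or with the clustered protocadherins were looked up in the same fit. The lists held 12 insulator and cohesin genes, 11 silencing factors and 15 tested partners at the membrane or below it. To these come 6 tested non-clustered protocadherins and 11 tested other cadherins and catenins. None of them was called, against 0.164% of all genes tested. An unadjusted p under 0.05 was found for 3, 1, 3, 0 and 2 of them in that order, against 11.4% of all genes tested. Median log2 fold changes of these lists were 0.02, -0.12, 0.07, -0.25 and -0.07.

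CTCF, the insulator protein that binds clustered protocadherin promoters, was the list gene with the smallest adjusted p. It stood at 84.3, 84.3 and 83.2 CPM in control and 59.7, 59.9 and 57.8 CPM in siDDX5 libraries, groups that were tight and far apart. Its log2 fold change was -0.50 (SE 0.09), with an edgeR adjusted p of 0.0733, and of 0.0144 with the replicate block. The cohesin subunit SMC1A had a log2 fold change of -0.37 (adjusted p = 0.253) and the cohesin subunit STAG1 one of 0.35 (adjusted p = 0.275). Whether these values bear on the beta genes was not tested.

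Among silencing factors, the DNA methyltransferase DNMT1 had a log2 fold change of -0.26 (edgeR adjusted p = 0.348), ATF7IP, which binds the histone methyltransferase SETDB1, one of -0.27 (0.447), and the histone methyltransferase EHMT1 one of -0.26 (0.486). Among partners, WASF2, an actin regulator of the WAVE complex, had -0.40 (adjusted p = 0.183), the kinase PTK2B -1.02 (0.320) and the WAVE complex subunit CYFIP2 0.55. Among other cadherins, CDH13 had -0.38 (adjusted p = 0.309) and CDH1 0.60 (0.420), and JUP, a catenin, had -0.70. Of the non-clustered protocadherins, PCDH15 had -0.86 (adjusted p = 0.515), PCDH18 -0.50 and PCDH12 -0.31. Leaving out single libraries moved PCDH15 between -1.24 and -0.50 and PCDH18 between -1.27 and -0.14. The larger fold changes came from genes at low levels. Mean CPM in control and siDDX5 libraries was 0.79 and 0.39 for PTK2B, 0.77 and 0.48 for JUP, and 0.74 and 0.40 for PCDH15.

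Genes next to the arrays on chromosome 5 were compared because they share the region. Of 29 protein-coding genes within 500 kb of the outermost members or between them, 24 were tested. None was called (0.164% of all genes tested were), and 3 had an unadjusted p under 0.05 (11.4% of all genes did). The median log2 fold change of the tested neighbours was -0.05, against -0.34 for the beta genes that passed the filter. ANKHD1-EIF4EBP3, a read-through gene that shares its reads with its component genes, was called with the replicate block (log2 fold change -0.44, edgeR adjusted p = 0.0408 with the block), and its groups overlapped. APBB3 had -0.50 (adjusted p = 0.279) and CD14 0.89 at under 1.1 CPM.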

How the data were processed

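Per the submitters' processing notes, bcl2fastq 2.20, FastQC 0.11.8, cutadapt 1.11 and kallisto 0.46.0 and the builds GRCh38 and hg38 were used. The annotation is not given in the sources used here. Per the file headers, the deposited tables give an estimated count (expected count, not normalized) and a TPM value, scaled by the authors for effective length, for each transcript. The labels describe TruSeq stranded mRNA libraries of first-strand type.

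Transcripts were joined to GENCODE 29 genes (169658 by identifier, 15453 by symbol, 890 by position, 2752 not joined; members by identifier) and summed. Sums of estimated counts were rounded and tested with filterByExpr, TMM and the quasi-likelihood test of edgeR 4.0.16 in R 4.3.3, with group as the only term. SE is the log2 fold change divided by the square root of F. SE and SD leave out the uncertainty of dividing reads among transcripts. The test was also run on counts simulated with the same dispersion for every gene and with independent libraries. That run does not cover changes in low-count genes, deviations shared by same-numbered libraries or reads divided among similar genes.

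Titles number the replicates. Deviations of same-numbered libraries from group means correlated at 0.209, 0.269 and 0.577 over 15223 genes, so a replicate block is given where it changes a call.

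Named members are the 5 with the highest mean TPM and the 2 with the smallest p per array and those called in either fit, and up to 3 genes per other list. Members and lists were chosen with earlier results of these data known. Alternatives were DESeq2 1.42.0 (size factors, Wald test), other count filters, the block, a GC trend removed, limma-trend (limma 3.58.1) on log2(TPM + 1) and log2(TPM + 0.1), other joins, protein-coding transcripts only, and each library left out. Sums without an array's lead gene were added after seeing the data.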

Additional observations from a re-analysis of the deposited data

How the results depend on the processing

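The number of clustered protocadherin genes called was 1 and became 2 (PCDHB2 and PCDHB5) with the DESeq2 Wald test, the replicate block, and the replicate block with GC correction. It became 0 in both limma-trend fits, and ranged from 0 to 1 when each library was left out in turn. All genes called numbered 25, and 323 with the DESeq2 Wald test, 136 without the filter, 394 with the replicate block, 555 with the replicate block and GC correction, 1 and 1 in the limma-trend fits, and 0 to 15 without single libraries. Regulator and partner genes called numbered 0, with 2 by the DESeq2 Wald test (CTCF and WASF2), 1 with the replicate block (CTCF) and 2 with the block and GC correction. The cause was not tested. The beta sum kept its direction in 13 of 13 alternatives (log2 ratio -0.68 to -0.41) and moved by more than 1 SD only without PCDHB2 (-0.41). The alpha sum ranged from -0.29 to -0.05 and the gamma sum from -0.34 to -0.17. DDX5 kept its direction (log2 fold change -1.53 to -1.30), with its call lost in limma-trend (-1.44 with adjusted p = 0.0849, -1.45 with 0.0926) and without 3 single libraries (-1.53 to -1.30 over the 6). PCDHB2 ranged from -1.21 to -1.03. PCDHA10 turned to 0.031 without siDDX5 replicate 3. PCDHA9 ranged from -0.40 to 0.084 and turned to 0.084 without control replicate 2. The other genes named by the rule kept their direction in the alternatives that could be run for them, and their size moved by over 1.5 times without single libraries for some, such as PCDHA4 (-0.30 to -0.041). Values in the alternatives are not given for PCDHB3, PCDHB4, PCDHGC4, PCDHGC5, PCDHB18P and the 7 beta genes given by fold change alone. Beyond the calls named above and in the report, the block changed no call of a named gene. Members with under 10 counts in a library are limited by depth.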
